A study of Mus musculus with 6 samples.

Results

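Pleiotrophin, encoded by Ptn, was measured together with its sister growth factor midkine (Mdk) and 8 of their reported receptors. The receptors were Ptprz1, Ptprs, Alk, the syndecans Sdc1, Sdc2, Sdc3 and Sdc4, and Lrp1. These 10 genes were taken by symbol from the 55401 genes counted in each library. The group was chosen by measured values, which were taken to be those of Ptn, with lower counts in TC than in EV cells. The differences of Ptn between the conditions are therefore given as a description with no test. The other 9 genes were taken as listed for their known roles, but with earlier results of these data known. Their p-values may therefore not be independent of the choice.

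NIH3T3 cells, an immortalized mouse embryonic fibroblast line, were compared in 6 poly(A) RNA libraries. EV cells carried an empty vector and were treated with DMSO (n = 2 libraries). TC cells expressed the TAZ-CAMTA1 fusion, which joins the transcriptional coactivator TAZ to CAMTA1, and were treated with DMSO (n = 1). TC + ATA cells expressed the same fusion and received aurintricarboxylic acid (ATA), a compound studied as a disruptor of TAZ-TEAD binding, at 10 μM for 48 h (n = 3). No EV library with ATA was analysed here, so the effect of ATA in cells without the fusion was not measured. The promoter of the fusion and the clonality of the cells are not given in the sources used here, nor is it said whether the libraries came from separate cultures. The p-values therefore measure the spread between these libraries, which may be technical. TC is a single library, so its own spread is unknown, and all 3 comparisons share libraries with each other.

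The libraries held between 58471484 and 74413193 counts. Values below are CPM, counts scaled to a common library total, after TMM normalization, and 3 counts correspond to between 0.0403 and 0.0513 CPM before that normalization. Reads on the mouse gene Wwtr1, which encodes TAZ, came to 110 and 104 CPM in EV and 139 CPM in TC. In TC + ATA they came to 131, 129 and 131 CPM. Reads on Camta1, the gene of the other fusion partner, came to 18.9 and 15.4 CPM in EV and 19.2 CPM in TC. In TC + ATA they came to 18.4, 18.8 and 18.7 CPM. The counts do not separate introduced from endogenous transcripts. All 8 fibroblast markers examined were detected in every library, and their summed level was 14697 and 16841 CPM in EV, 18584 CPM in TC and between 18194 and 19379 CPM in TC + ATA. Col1a1, Col1a2, Vim and Fn1 made up most of this sum. Single markers differed in spread. Over the libraries, Pdgfra ran from 175 to 422 CPM (median 180) and Thy1 from 69.6 to 204 CPM (median 83.3), but Col3a1 only from 830 to 977 CPM. The 4 epithelial markers summed to at most 0.494 CPM in any library. The sum of the leukocyte markers Ptprc and Cd68 was at most 7.89 CPM, and the endothelial markers Pecam1 and Cdh5 reached at most 1.24 and 1.43 CPM. The 4 neural and glial markers summed to 8.12 and 8.22 CPM in EV, 7.69 CPM in TC and between 5.31 and 5.73 CPM in TC + ATA, and Sox10 was at 0 in 5 of the 6 libraries. The part of any of these differences in the results was not tested.

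Pleiotrophin and midkine are small secreted proteins that bind heparin and form a family of their own. Both attach to glycosaminoglycan chains on cell surface proteoglycans and to the receptor phosphatase PTPRZ1, whose activity pleiotrophin binding reduces, so that tyrosine phosphorylation of its substrates rises. The syndecans carry heparan sulfate chains and hold such ligands at the surface, while the receptor tyrosine kinase ALK and the endocytic receptor LRP1 have been reported as further partners. Both ligands are abundant in the embryo, and pleiotrophin acts in brain, bone and connective tissue.

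Promoter windows of RefSeq, reaching from 250 bases before to 50 bases after a gene start on GRCm38.p6, were found for 8 of the 10 genes (9 windows). The 3 promoters below are shown because Ptn had the lowest level in TC relative to EV of the group and because Sdc1 and Sdc3 were the genes called lower in both comparisons with EV. Each is given 5′ to 3′ on the strand of its gene and ends at the annotated start of the gene. Capitals mark matches, on either strand, to one of 6 motifs that were searched. The Ptn stretch lies on the minus strand at chr6:36810221-36810429, that of Sdc1 on the plus strand at chr12:8771146-8771322 and that of Sdc3 on the plus strand at chr4:130792287-130792536.
Ptn: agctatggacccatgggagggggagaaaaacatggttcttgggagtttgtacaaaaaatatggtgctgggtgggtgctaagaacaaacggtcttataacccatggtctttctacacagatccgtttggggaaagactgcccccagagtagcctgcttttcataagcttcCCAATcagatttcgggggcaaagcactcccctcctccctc
Sdc1: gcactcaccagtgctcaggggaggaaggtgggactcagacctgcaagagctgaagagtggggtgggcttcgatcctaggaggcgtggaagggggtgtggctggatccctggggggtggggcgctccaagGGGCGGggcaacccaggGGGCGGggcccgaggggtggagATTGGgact
Sdc3: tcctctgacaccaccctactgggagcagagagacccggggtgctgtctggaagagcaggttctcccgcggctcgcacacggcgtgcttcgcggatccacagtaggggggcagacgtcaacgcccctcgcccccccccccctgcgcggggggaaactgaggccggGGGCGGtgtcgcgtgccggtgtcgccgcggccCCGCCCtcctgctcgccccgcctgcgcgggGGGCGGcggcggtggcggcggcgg

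The Ptn stretch held 1 CCAAT box (CCAAT) and no GC box (GGGCGG). The Sdc1 stretch held 2 GC boxes and 1 CCAAT box, and the Sdc3 stretch held 3 GC boxes. Of all 32851 RefSeq windows, 37.4% held a CCAAT box and 35.7% a GC box, so these matches are common. The TEAD core GGAATG, present in 14.7% of windows, was found in those of Ptprs and Alk and in none of the other 6 genes. These 2 stretches are shown, with the core in capitals, because TEAD proteins are the DNA-binding partners of TAZ. The core began 160 bases before the RefSeq start in the Ptprs window, at chr17:56462364-56462393, and 147 bases before it in the Alk window, at chr17:72604437-72604466, both on the minus strand. On that strand the annotated genes start further upstream, at 56476483 for Ptprs and 72604627 for Alk. Both stretches therefore lie inside the annotated genes, unlike the 3 promoters above.
Ptprs: tccccggctcccCATTCCtcccgaatctgc
Alk: gctcctctgcccGGAATGttttcactagtc

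The AP-1 motif TGANTCA (7.81% of windows) and the TATA box TATAAA (13.6%) were found in no window of the group, and the E-box CACGTG (7.15%) was found in that of Ptprs alone. The motifs were chosen after the sequences were seen. A match is a description of the letters only, and its absence from a window of this length says nothing of a factor.

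Of the 2 ligands, Ptn was expressed at a high level that was lower in TC and partly higher again in TC + ATA. Ptn (ENSMUSG00000029838) lies on the minus strand of chromosome 6 from 36714929 to 36810220 and has 5 merged exon blocks. The EV libraries held 1092 and 1206 CPM of it, TC held 104 CPM, and the TC + ATA replicates held 221, 231 and 215 CPM. The groups did not overlap, and TC was the lowest library and EV the highest pair. The mean was 1149 ± 80.0 CPM in EV (SD, n = 2) and 222 ± 8.32 CPM in TC + ATA (SD, n = 3). EV therefore stood 11-fold above TC and 5.17-fold above TC + ATA, and TC + ATA stood 2.14-fold above TC. In a bulk sample, fewer cells that express a gene and less RNA of it per cell cannot be told apart.

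Ptn had a fitted log2 fold change of −3.47 between TC and EV, of 1.10 between TC + ATA and TC, and of −2.37 between TC + ATA and EV. Its standard errors are left out of the text, as they derive from the test statistic. On the log2 scale, TC + ATA regained 31.6% of the gap between EV and TC. The single TC library, whose low value was taken to have led to the choice of Ptn, enters both the gap and the rise. The choice can therefore enlarge both. Each TC + ATA library was between 2.07 and 2.22 times the TC library, and the lower EV library was still 4.72 times the highest TC + ATA library. The TC value rests on 7222 counts, or 101 CPM without TMM (exact 95% binomial interval 98.4 to 103, which covers counting error only).

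Per kilobase of merged exonic sequence, Ptn ranked 159 and 106 among 18519 genes in the EV libraries. Its rank was 1901 in TC and 857, 813 and 873 in TC + ATA. Its share of all counts was 0.110% and 0.131% in EV, 0.0101% in TC and between 0.0214% and 0.0227% in TC + ATA.

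**Figure D1:**
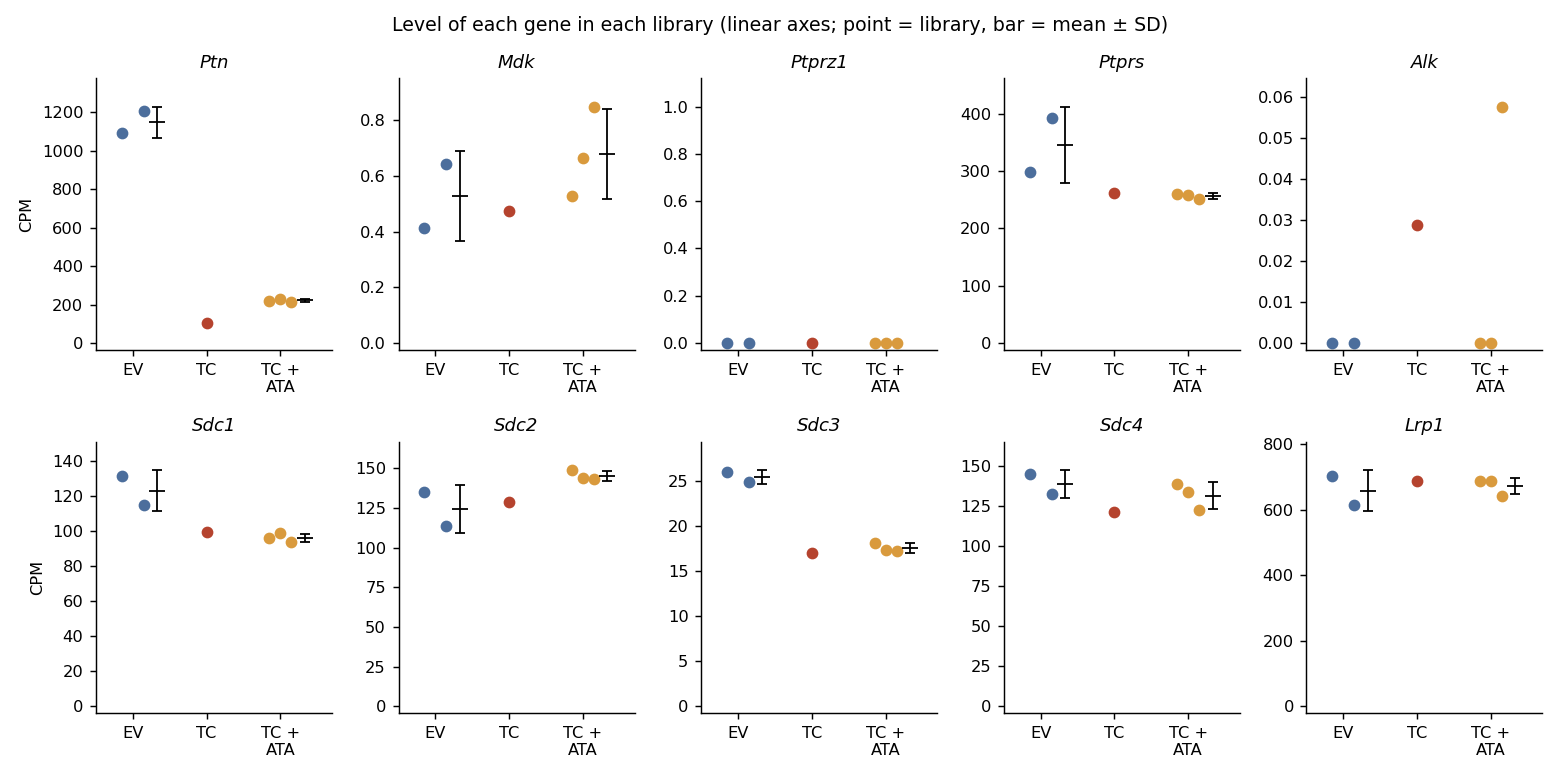
Level of each of the 10 genes in CPM (vertical axes, linear and separate for each gene) in the EV, TC and TC + ATA libraries. Points are libraries and bars the mean ± SD of EV (n = 2) and TC + ATA (n = 3), left out for Alk and Ptprz1. Ptn lies at 1092 and 1206 CPM in EV and at 104 CPM in TC, while Sdc4, Sdc2 and Lrp1 stay within a narrow range.

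The second ligand, Mdk, was close to silent in every library. Mdk (ENSMUSG00000027239, chromosome 2, 91929805 to 91932297, minus strand) had 31 and 49 counts in EV, 33 in TC and 30, 47 and 59 in TC + ATA. These counts correspond to 0.414 and 0.643 CPM in EV, 0.475 CPM in TC and 0.528, 0.663 and 0.848 CPM in TC + ATA. The groups overlapped, and no library exceeded 1 CPM. Between TC and EV, Mdk had a log2 fold change of −0.15 (SE 0.51, 95% interval −1.31 to 1.00), with an adjusted p of 0.863 in the quasi-likelihood test of edgeR. It was 0.52 (95% interval −0.58 to 1.62) for TC + ATA over TC and 0.37 (−0.48 to 1.21) for TC + ATA over EV (adjusted p = 0.797 and 0.486 from edgeR). At this depth, differences inside these intervals were not detectable. Mdk-ps1, a pseudogene that could take Mdk reads, had 0 counts in all libraries. The treatment of multimapping reads is not given in the sources used here, so this does not show that Mdk lost no reads.

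Ptn supplied nearly all of the ligand transcripts. Per kilobase, Ptn stood 1017-fold and 724-fold above Mdk in the EV libraries. The ratio was 84.4 in TC and 161, 135 and 97.7 in TC + ATA. Even at its lowest, Ptn was thus the ligand with by far the higher transcript level.

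Of the 2 receptors most often named for these ligands in the nervous system and in tumors, neither was measurably expressed. Ptprz1 (ENSMUSG00000068748, chromosome 6, 22875502 to 23052916, plus strand) had 0 counts in all 6 libraries. In the TC library this allows at most 0.0515 CPM without TMM (exact 95% binomial interval). Alk (ENSMUSG00000055471, chromosome 17, 71868972 to 72604627, minus strand) had 2 counts in TC, 4 in TC + ATA replicate 3 and 0 in the other libraries. Its TC value was 0.0279 CPM without TMM, with an exact 95% binomial interval of 0.00338 to 0.101. Both genes fell below the filter on low counts (filterByExpr), so neither entered the fit, and a difference between the groups was not detectable at this depth.

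PTPRS, a receptor phosphatase whose first immunoglobulin domain binds heparan and chondroitin sulfate, was expressed in every library. Ptprs (ENSMUSG00000013236) lies on the minus strand of chromosome 17 from 56412426 to 56476483. Its level was 298 and 392 CPM in EV, 261 CPM in TC and 261, 259 and 251 CPM in TC + ATA. Both EV libraries were above all TC and TC + ATA libraries, but they differed more from each other than the lower one did from TC. Ptprs fell by 0.43 on the log2 scale from EV to TC + ATA (SE 0.10, adjusted p = 0.0111 from edgeR). The value was −0.40 in TC versus EV (SE 0.14, adjusted p = 0.0673 from edgeR), which did not pass the limit of 0.05, although it did with DESeq2 (adjusted p = 0.0186). From TC to TC + ATA it was −0.03 (SE 0.13, 95% interval −0.33 to 0.27, adjusted p = 0.974 from edgeR). Without TC + ATA replicate 3, the difference between TC + ATA and EV missed the limit (adjusted p = 0.0598 from edgeR).

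Among the syndecans, Sdc1 and Sdc3 were lower in TC-expressing cells than in EV, while Sdc2 and Sdc4 did not pass the test in any of the 3 comparisons. Syndecan-3, also called N-syndecan, is the syndecan through which pleiotrophin promotes neurite outgrowth. Sdc3 (ENSMUSG00000025743, chromosome 4, 130792537 to 130826319, plus strand) measured 26.0 and 25.0 CPM in EV, 17.0 CPM in TC and 18.2, 17.4 and 17.2 CPM in TC + ATA. All libraries with the fusion lay below both EV libraries, which were close to each other. Relative to EV, Sdc3 fell by 0.58 on the log2 scale in TC (SE 0.10, adjusted p = 0.00257 from edgeR) and by 0.53 in TC + ATA (SE 0.07, adjusted p = 0.000469 from edgeR). Between TC + ATA and TC it was 0.05 (SE 0.09, 95% interval −0.16 to 0.27, adjusted p = 0.916 from edgeR). Of its 5989 exonic bases, 463 overlap the genes Gm12970 and Gm26716 on the opposite strand, and whether reads were counted by strand is not given in the sources used here.

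Syndecan-1, found mostly on epithelia and plasma cells but also on fibroblasts, was the other syndecan that was lower. Sdc1 (ENSMUSG00000020592, chromosome 12, 8771323 to 8793715, plus strand) measured 132 and 115 CPM in EV, 99.4 CPM in TC and 96.4, 98.8 and 94.2 CPM in TC + ATA. The groups EV and TC + ATA did not overlap. Sdc1 fell by 0.35 on the log2 scale from EV to TC + ATA (SE 0.07, adjusted p = 0.00396 from edgeR) and by 0.31 from EV to TC (SE 0.10, adjusted p = 0.0402 from edgeR). The latter did not pass with EV and TC alone in the fit (adjusted p = 0.253 from edgeR), with a replicate block, in which the replicate number is a term of the fit (adjusted p = 0.122 from edgeR) or without any one TC + ATA replicate (adjusted p between 0.0882 and 0.0938 from edgeR). From TC to TC + ATA, Sdc1 had a log2 fold change of −0.04 (SE 0.09, adjusted p = 0.929 from edgeR).

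Syndecan-2, the fibroglycan of mesenchymal cells, and syndecan-4, which sits in focal adhesions, were the 2 most abundant syndecans per kilobase. Sdc2 (ENSMUSG00000022261, chromosome 15, 32920723 to 33034935, plus strand) measured 135 and 114 CPM in EV, 129 CPM in TC and 149, 144 and 143 CPM in TC + ATA. The TC + ATA libraries were above the others, by a margin smaller than the gap between the EV libraries. Relative to EV, Sdc2 in TC + ATA had a log2 fold change of 0.22 (SE 0.08, adjusted p = 0.0539 from edgeR), which passed the limit with DESeq2 (adjusted p = 0.0277). Relative to TC it was 0.18 (SE 0.10, adjusted p = 0.643 from edgeR), and 0.19 with an adjusted p of 0.0182 when the edgeR fit held only those 2 groups. In TC versus EV it was 0.05 (SE 0.11, adjusted p = 0.785 from edgeR) and changed sign under scaling to library size alone.

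Sdc4 (ENSMUSG00000017009, chromosome 2, 164424247 to 164443887, minus strand) measured 145 and 133 CPM in EV, 122 CPM in TC and 139, 134 and 122 CPM in TC + ATA. The EV and TC + ATA libraries overlapped, and TC lay at the lower end. Between TC and EV, Sdc4 had a log2 fold change of −0.19 (95% interval −0.42 to 0.04, adjusted p = 0.198 from edgeR). It passed the limit under scaling to library size alone (−0.30, adjusted p = 0.0312 from edgeR) and without EV replicate 2 (−0.26, adjusted p = 0.0121 from edgeR). It was 0.11 for TC + ATA over TC and −0.08 for TC + ATA over EV (adjusted p = 0.770 and 0.451 from edgeR).

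LRP1, a large endocytic receptor of the LDL receptor family that takes up many ligands and proteases, gave the highest CPM of the receptors. Its gene has 17717 exonic bases, and per kilobase it was below Sdc4 in every library. Lrp1 (ENSMUSG00000040249, chromosome 10, 127538161 to 127621148, minus strand) measured 702 and 614 CPM in EV, 689 CPM in TC and 687, 687 and 643 CPM in TC + ATA. All TC and TC + ATA libraries fell between the EV libraries. Relative to EV, Lrp1 had a log2 fold change of 0.06 in TC (95% interval −0.18 to 0.31) and of 0.03 in TC + ATA (95% interval −0.15 to 0.21), both of which changed sign under scaling to library size alone. For TC + ATA over TC it was −0.03 (95% interval −0.26 to 0.19). From edgeR, these 3 differences of Lrp1 had adjusted p-values of 0.708, 0.802 and 0.954.

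Of the 9 genes other than Ptn, 7 passed the filter on low counts. Between TC and EV, 0 were called higher and 2 lower (28.6%), beside 14.8% of all 18539 genes tested that were called higher and 13.2% that were called lower. Between TC + ATA and EV, 0 were called higher and 3 lower (42.9%), beside 18.0% and 18.6% of all genes. Between TC + ATA and TC, 0 were called in either direction by edgeR or by DESeq2, with 0 at an unadjusted p under 0.05 in edgeR, beside 0.426% called higher and 0.156% called lower of all genes. The median log2 fold change of the 7 genes was −0.19, −0.08 and 0.05 in these 3 comparisons, and that of all genes −0.03, −0.01 and 0.00. Scaling by library size only moved the median of all genes in TC versus EV from −0.03 to −0.13, and the genes called higher and lower from 2735 and 2456 to 2072 and 3159. For TC + ATA versus EV that scaling gave 2711 higher and 4384 lower, in place of 3340 and 3449.

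**Figure D2:**
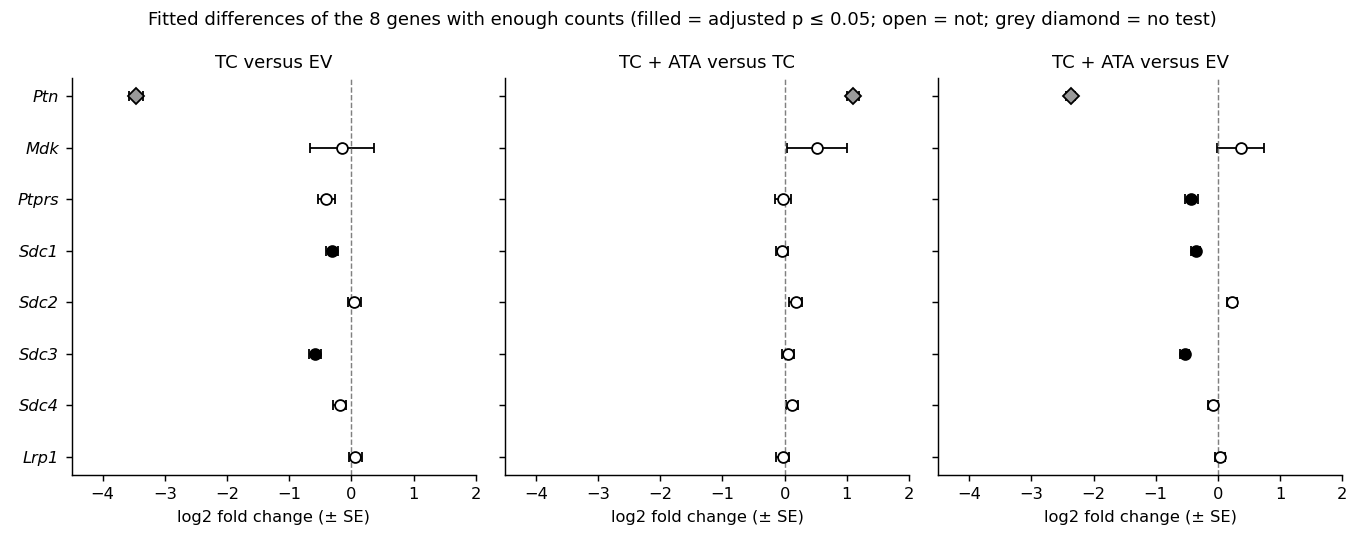
Fitted log2 fold changes (horizontal axis, bars are ± 1 standard error) of the 8 genes that passed the filter, in the 3 comparisons. Filled circles have an adjusted p of at most 0.05 from edgeR, open circles do not, and the grey diamond is Ptn, which was not tested. As Ptn was taken to be chosen by its values, its bars are not a measure of certainty. Ptn lies at −3.47, 1.10 and −2.37, whereas the receptors lie between −0.58 and 0.22.

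The order of the levels per kilobase changed around Ptn while that of the receptors remained similar. In EV, Ptn came first with 335 ± 23.3 CPM per kb (SD, n = 2), followed by Sdc4 with 54.5 ± 3.42. Lrp1 (37.2 ± 3.51), Sdc2 (35.3 ± 4.27) and Sdc1 (32.4 ± 3.06) followed, and each of these 3 overlapped with the next. Ptprs (23.0 ± 4.44), Sdc3 (4.26 ± 0.127) and Mdk (0.399 ± 0.122) were lower and separate. In the TC library, Ptn stood at 30.3 CPM per kb, below Sdc4 (47.7), Lrp1 (38.9) and Sdc2 (36.5) and above Sdc1 (26.1) and Ptprs (17.4). In TC + ATA, Ptn was first again with 64.8 ± 2.42 CPM per kb (SD, n = 3), ahead of Sdc4 (51.6 ± 3.26), Sdc2 (41.2 ± 0.875) and Lrp1 (38.0 ± 1.44), with no overlap between any of these neighbours. The transcripts of Ptn amounted to 1.64 and 1.95 times the sum of the other 9 genes per kilobase in EV, 0.178 times in TC and between 0.355 and 0.377 times in TC + ATA.

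In TC and TC + ATA, Sdc1 and Sdc3 made up less of the syndecan transcripts than in EV, and Sdc2 made up more. Sdc1 made up 25.6% ± 0.216 of the syndecan CPM per kb in EV (SD, n = 2), 23.1% in TC and 20.9% ± 0.584 in TC + ATA (SD, n = 3). Sdc2 made up 27.9% ± 0.983, 32.2% and 34.0% ± 0.818 in the same order. Sdc3 went from 3.38% ± 0.190 to 2.51% and 2.43% ± 0.0464. The share of Sdc4, the syndecan with the highest level per kilobase in every library, was 43.2% ± 1.01, 42.2% and 42.6% ± 1.16, which is within the spread of the libraries. For Sdc1, Sdc2 and Sdc3, the EV libraries did not overlap with the TC and TC + ATA libraries, and the shares were not tested. How often other genes separate the libraries in this way was not counted, so the lack of overlap does not set the syndecans apart. A change of one share shifts the others. In TC the share of Sdc2 was higher although its level, 129 CPM, lay between the EV libraries (135 and 114 CPM).

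**Figure D3:**
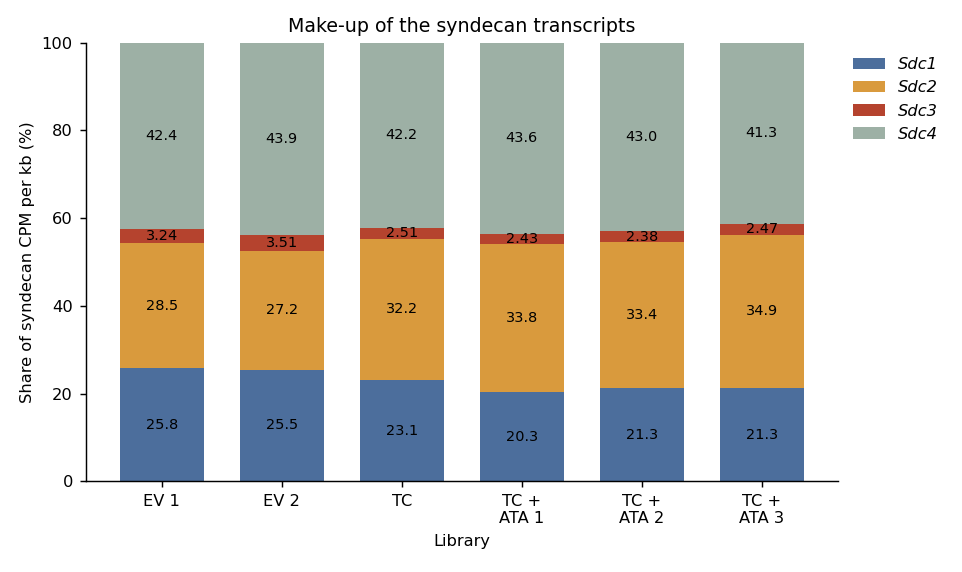
Share of Sdc1, Sdc2, Sdc3 and Sdc4 in the summed syndecan CPM per kb (vertical axis, percent) in each of the 6 libraries. Numbers inside the bars are the shares. Sdc2 takes 27.2% and 28.5% in EV and between 32.2% and 34.9% in the other libraries.

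The genes whose profile over the 6 libraries was nearest to that of Ptn were Smoc2, Cxcl12, Slc1a3, AW551984 and Igsf10. Likeness was the Euclidean distance between centred log2(CPM + 0.5) profiles, over 10423 genes that averaged 5 CPM or more, and it is a description over 6 libraries that fall into 3 groups. Smoc2, a secreted calcium-binding matrix protein, was nearest, at a distance of 0.29. It measured 117 and 122 CPM in EV, 13.0 CPM in TC and 27.1, 25.8 and 24.0 CPM in TC + ATA. Cxcl12, the chemokine that binds CXCR4, followed at a distance of 0.32, with 85.0 and 91.2 CPM in EV, 9.93 CPM in TC and 18.7, 18.6 and 18.9 CPM in TC + ATA. The glutamate transporter gene Slc1a3, AW551984 and Igsf10 were at distances of 0.50, 0.51 and 0.53. Across the 5 genes, EV was between 8.19-fold and 16.6-fold above TC, and TC + ATA between 1.69-fold and 2.09-fold above TC. As they were picked for a profile like that of Ptn, this pattern follows from the choice. For Mdk, the nearest profiles were those of Sfmbt2, Srek1ip1, Ptgs2, Whamm and Anapc15, at distances of 0.22 to 0.25. Mdk itself varied only between 30 and 59 counts, so this likeness carries little information.

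**Figure D4:**
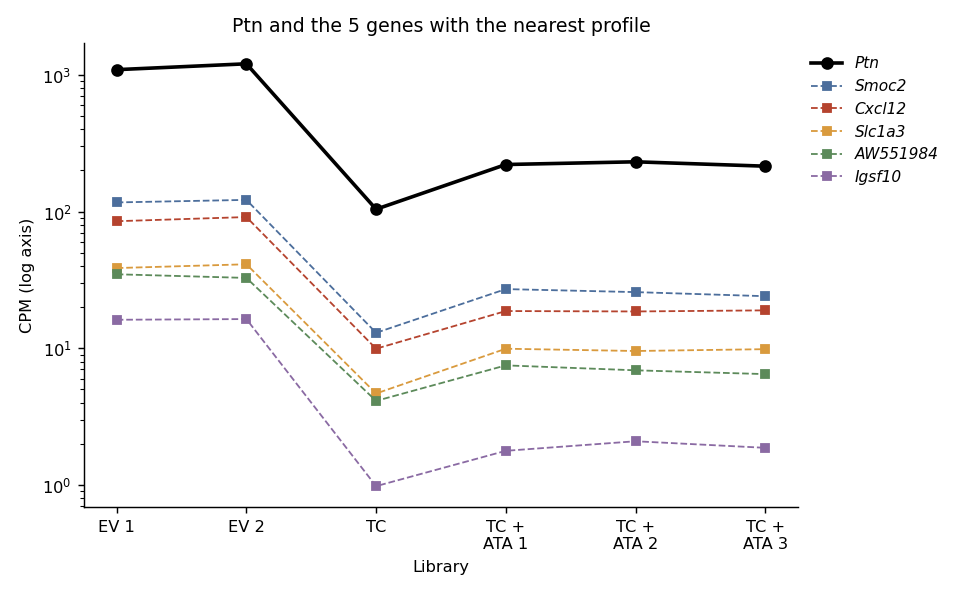
Level in CPM (vertical axis, logarithmic) of Ptn (black, solid) and of the 5 genes with the nearest profile (colored, dashed) in each library (horizontal axis). All 6 genes are highest in both EV libraries and lowest in TC, and in TC + ATA they lie between those, for Smoc2 at 24.0 to 27.1 CPM.

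Around these 10 genes, 8 lists of 103 genes in all were examined, of which 88 genes passed the filter. Between TC and EV, 29 were called higher (33.0%) and 15 lower (17.0%), beside the 14.8% and 13.2% of all genes. Between TC + ATA and EV, 34 were called higher (38.6%) and 19 lower (21.6%), beside 18.0% and 18.6%. Hs3st1 is among the genes called higher in both comparisons with EV, and Ncan in TC + ATA versus EV. Both passed the filter on low counts only through libraries with the fusion, which favours such calls. From TC to TC + ATA, 1 was called higher and 0 lower by edgeR, beside 0.426% and 0.156% of all genes. DESeq2 called 3 higher and 1 lower, and 17 had an unadjusted p under 0.05 in edgeR. The share of all genes at such an unadjusted p was not taken, here or below, so these counts do not set the lists apart from other genes. The counts of each list below rest on few genes and stand beside the shares of all genes given here. Where a call below is said to be lost in a setting, further settings that lost it are given near the end. As the lists were chosen with earlier results known, shares above those of all genes are not a test of them.

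Other reported binding proteins of the ligands were called higher more often than lower in TC, beside 14.8% and 13.2% of all genes. Of 15 tested among 18, 7 rose and 3 fell in TC versus EV, with a median log2 fold change of 0.38 beside −0.03 for all genes. Itga6, the laminin-binding integrin α6 reported as a midkine receptor, was 81.2 CPM on average in EV and 326 CPM in TC (log2 fold change 2.01, SE 0.08, adjusted p = 9.19e-07 from edgeR). Itgav, the integrin αv subunit of the pleiotrophin-binding αvβ3, went from 97.0 to 204 CPM (log2 fold change 1.08, adjusted p = 3.22e-05 from edgeR). Its partner Itgb3 went the other way, from 5.95 to 3.67 CPM (log2 fold change −0.70, adjusted p = 0.0277 from edgeR), a call that was lost with the replicate block (adjusted p = 0.0983 from edgeR). The endocytic receptor gene Lrp2 stayed low, with 19 and 9 counts in EV and 104 in TC, a difference that passed the test (adjusted p = 0.00146 from edgeR).

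Versican (Vcan), a chondroitin sulfate proteoglycan of the matrix, fell from 417 CPM in EV to 175 CPM in TC (log2 fold change −1.25, SE 0.09, adjusted p = 1.52e-05 from edgeR). It stood at 176 CPM in TC + ATA. Nrp1, which encodes the co-receptor neuropilin-1, fell by 0.34 on the log2 scale in TC (adjusted p = 0.0140 from edgeR), which was lost with the replicate block (adjusted p = 0.117 from edgeR). Against EV, 7 genes of this list rose in TC + ATA and 1 fell, and in TC + ATA versus TC 0 were called by edgeR or DESeq2 (5 at an unadjusted p under 0.05 in edgeR). Ncan, the brain proteoglycan neurocan, is among the former with 0 counts in both EV libraries and 2, 20 and 4 in TC + ATA, so no fold is given. It passed the filter on low counts only through libraries with the fusion, so no p-value is given for it. Its call was lost with the replicate block and without EV replicate 1, EV replicate 2 or TC + ATA replicate 3.

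Of the phosphatases related to PTPRS and PTPRZ1, Ptprf and Ptprg rose in TC. Ptprf, which encodes LAR, went from 67.4 CPM in EV to 146 CPM in TC (log2 fold change 1.11, adjusted p = 3.98e-05 from edgeR). Ptprg, in the same subfamily as Ptprz1, went from 29.9 to 56.8 CPM (log2 fold change 0.93, adjusted p = 3.19e-05 from edgeR). In TC + ATA, Ptprf stood at 138 CPM and Ptprg at 59.0 CPM. Of the 5 genes of this list, which also held Ptprd and the ALK ligands Alkal1 and Alkal2, 3 passed the filter, and these 2 were called in both comparisons with EV. From TC to TC + ATA, 0 were called by edgeR or DESeq2 (1 at an unadjusted p under 0.05 in edgeR). Its median difference was 1.11 from EV to TC, −0.08 from TC to TC + ATA and 0.98 from EV to TC + ATA on the log2 scale.

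Other heparan sulfate proteoglycans rose more often than they fell. Of 8 tested among 9, 4 rose and 1 fell in TC versus EV (median log2 fold change 0.32), and 4 rose and 2 fell in TC + ATA versus EV (0.35). Of all genes, 14.8% were called higher and 13.2% lower in the first comparison, and 18.0% and 18.6% in the second. The glypican gene Gpc6 averaged 3.98 CPM in EV, with 19.1 CPM in TC and 25.5, 24.2 and 24.0 CPM in TC + ATA. Gpc6 rose by 2.26 on the log2 scale from EV to TC (SE 0.10, adjusted p = 1.22e-06 from edgeR). Perlecan (Hspg2) and Gpc1 rose too, by 0.81 and 0.67 on the log2 scale (adjusted p = 0.00131 and 0.000539 from edgeR), and Gpc4 rose by 0.76 in TC + ATA versus EV (adjusted p = 4.81e-05 from edgeR). From TC to TC + ATA, 0 were called by edgeR or DESeq2, with 1 at an unadjusted p under 0.05 in edgeR. Betaglycan (Tgfbr3), a co-receptor of TGF-β, fell by 0.56 in TC versus EV (adjusted p = 0.00198 from edgeR). The gene for collagen XVIII, Col18a1, fell by 0.46 in TC + ATA versus EV (adjusted p = 0.0108 from edgeR), and this was lost with the replicate block (adjusted p = 0.0502 from edgeR).

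**Figure D5:**
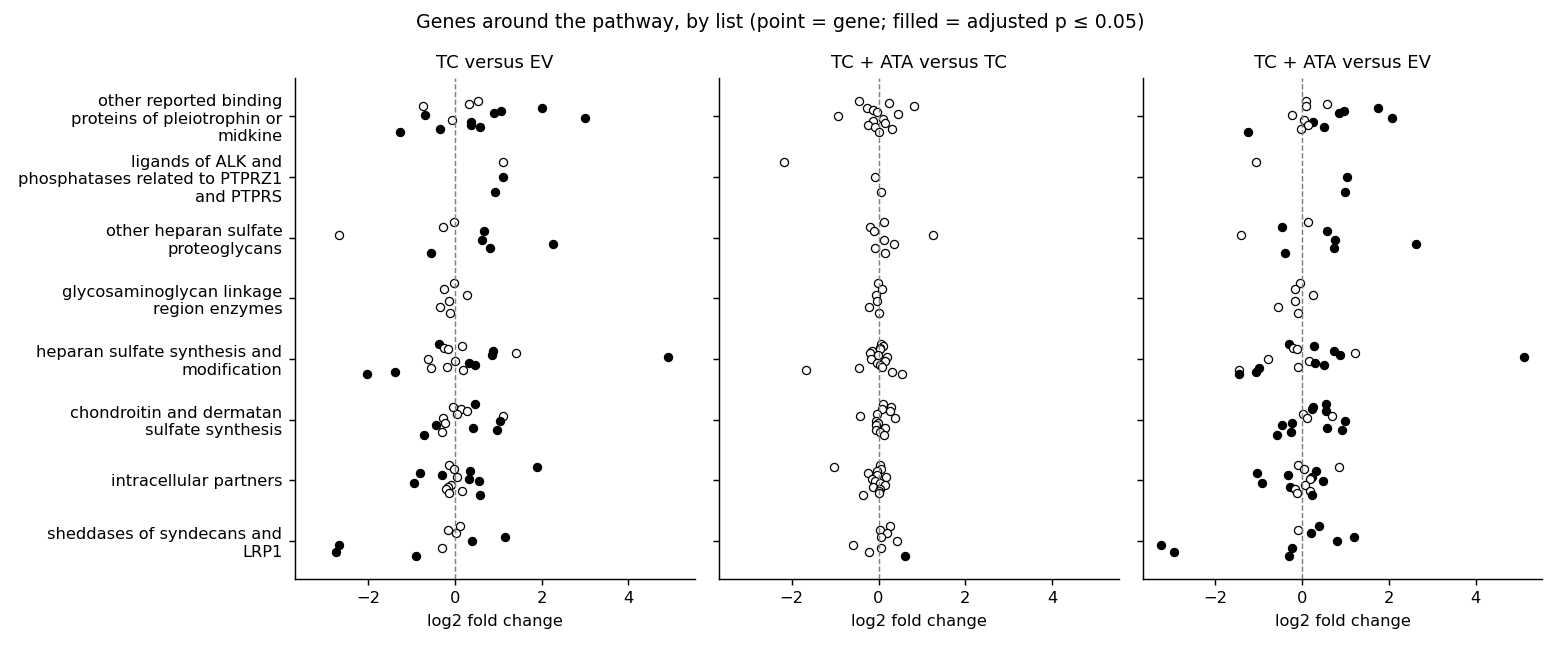
Fitted log2 fold change (horizontal axis) of the 88 tested genes in the 8 lists (vertical axis) for the 3 comparisons. Each point is a gene, filled where the adjusted p from edgeR was at most 0.05. Filled points lie on both sides of 0 in the outer panels, and 1 point, Timp3, is filled in the middle panel. Ncan, with 0 counts in EV, is left out of the panels that compare with EV.

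The chains to which both ligands bind are built by enzymes that act in sequence. Of the 6 genes that make the linkage between core protein and chain, 0 were called in any of the 3 comparisons by edgeR or DESeq2, with 2, 0 and 3 at an unadjusted p under 0.05 in TC versus EV, TC + ATA versus TC and TC + ATA versus EV in edgeR. Of 17 tested heparan sulfate enzymes among 22, 5 rose and 3 fell in TC versus EV and 6 rose and 4 fell in TC + ATA versus EV. Their medians of 0.01 and −0.10 were near those of all genes. Sulf2 and Sulf1, extracellular sulfatases that remove 6-O-sulfate from heparan sulfate, fell most. Sulf2 had 47.3 and 42.6 CPM in EV, 11.1 CPM in TC and 15.8, 17.0 and 16.1 CPM in TC + ATA, with a log2 fold change of −2.02 in TC versus EV (SE 0.12, adjusted p = 4.20e-06 from edgeR). For Sulf1 it was −1.37 (adjusted p = 0.000295 from edgeR).

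Among the enzymes that act inside the Golgi, Glce, the C5-epimerase, and Hs2st1, the 2-O-sulfotransferase, both rose in TC versus EV, by 0.88 and 0.87 (adjusted p = 6.33e-05 and 0.000137 from edgeR). The 3-O-sulfotransferase gene Hs3st1 had 6 and 0 counts in EV, 87 in TC and 86, 105 and 92 in TC + ATA. It is counted among the enzymes that rose in both comparisons with EV. It passed the filter on low counts only through libraries with the fusion, so no p-value is given for it. The chain polymerase gene Ext1 fell by 0.36 (adjusted p = 0.00961 from edgeR), a call that was lost with the replicate block (adjusted p = 0.128 from edgeR). From EV to TC + ATA, Ndst3, an N-deacetylase and N-sulfotransferase, fell by 1.00 (adjusted p = 0.000626 from edgeR).

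For chondroitin and dermatan sulfate, 14 of 16 genes were tested. Between TC and EV 4 rose and 2 fell (median 0.10), and in TC + ATA versus EV 7 rose and 4 fell (median 0.24), of which DESeq2 called 7 and 2. The 6-O-sulfotransferase gene Chst7 and the dermatan sulfate epimerase gene Dse rose by 1.04 and 0.97 in TC versus EV (adjusted p = 0.000843 and 3.57e-05 from edgeR). Ust, the uronyl 2-sulfotransferase, fell by 0.71 (adjusted p = 0.00201 from edgeR). Chpf and Csgalnact1, which elongate and start the chains, had log2 fold changes of 0.46 and −0.43 (adjusted p = 0.00674 and 0.0231 from edgeR), and both were lost with the replicate block (adjusted p = 0.0726 and 0.132 from edgeR). Relative to EV, in TC + ATA Csgalnact2 rose by 0.56 (adjusted p = 0.000141 from edgeR) and Dsel fell by 0.26 (adjusted p = 0.0246 from edgeR, 0.0618 from DESeq2). From TC to TC + ATA, 0 chondroitin and dermatan sulfate genes were called by edgeR or DESeq2 (2 at an unadjusted p under 0.05 in edgeR), and for heparan sulfate enzymes edgeR called 0 and DESeq2 called 1 (2 at an unadjusted p under 0.05 in edgeR).

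Inside the cell, 16 of 17 partners were tested, which include substrates of PTPRZ1 and adaptors of the syndecans, ALK and LRP1. In TC versus EV 5 rose and 3 fell (median −0.05), and in TC + ATA versus EV 4 rose and 4 fell (median 0.06). Git1 and the kinase gene Src rose by 0.56 and 0.58 in TC versus EV (adjusted p = 0.000813 and 0.000647 from edgeR). Arhgap35, which encodes p190RhoGAP, rose by 0.31 in TC + ATA versus EV (adjusted p = 0.00393 from edgeR). The adducin gene Add2 was low, at 0.272 CPM in EV and 1.01 CPM in TC (adjusted p = 0.0152 from edgeR), and its call was lost with the replicate block (adjusted p = 0.0881 from edgeR). Cask, a scaffold that binds the syndecan tail, fell by 0.81 and the adaptor gene Irs1 by 0.95 (adjusted p = 0.00129 and 0.00135 from edgeR). Ctnnb1, which encodes β-catenin, a PTPRZ1 substrate, went from 550 to 448 CPM (adjusted p = 0.0469 from edgeR), and this was lost with the replicate block (adjusted p = 0.179 from edgeR) and without any one TC + ATA replicate (adjusted p between 0.108 and 0.137 from edgeR). Of these genes, edgeR called 0 between TC + ATA and TC and DESeq2 called 1 (2 at an unadjusted p under 0.05 in edgeR).

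Of the proteases that cut syndecans and LRP1 from the surface, with their inhibitor Timp3, 9 of 10 genes were tested. In TC versus EV 2 rose and 3 fell (median −0.15), and in TC + ATA versus EV 4 rose and 4 fell (median −0.10). Adam9 went from 177 CPM in EV to 393 CPM in TC (log2 fold change 1.15, adjusted p = 3.43e-05 from edgeR) and stood at 407 CPM in TC + ATA. Mmp14, the membrane-bound MT1-MMP, rose by 0.39 in TC versus EV (adjusted p = 0.00977 from edgeR), which was lost with the replicate block (adjusted p = 0.112 from edgeR), and by 0.80 in TC + ATA versus EV (adjusted p = 2.18e-05 from edgeR). Adam10 rose by 0.39 in TC + ATA versus EV (adjusted p = 0.00161 from edgeR). Mmp9 fell from 4.98 to 0.749 CPM in TC versus EV (adjusted p = 0.000121 from edgeR). Mmp16 had 85 and 83 counts in EV and 12 in TC (adjusted p = 0.0316 from edgeR), and this was lost with the replicate block (adjusted p = 0.102 from edgeR).

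Timp3, the inhibitor of ADAM and matrix metalloproteinases, was the listed gene called in TC + ATA versus TC. It measured 115 and 110 CPM in EV, 60.3 CPM in TC and 94.9, 93.8 and 85.4 CPM in TC + ATA. The TC library was the lowest and the TC + ATA libraries lay between TC and EV. Timp3 fell by 0.90 on the log2 scale from EV to TC (SE 0.09, adjusted p = 0.000131 from edgeR) and rose by 0.60 from TC to TC + ATA (SE 0.09, adjusted p = 0.0251 from edgeR). The second call was lost with the replicate block (adjusted p = 0.116 from edgeR) and without any one TC + ATA replicate (adjusted p between 0.0937 and 0.172 from edgeR).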

How the data were processed

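Bulk RNA-Seq counts of NIH3T3 cells were used from 6 libraries (EV n = 2, TC n = 1, TC + ATA n = 3), grouped by the sample labels. The authors sequenced poly(A) libraries as paired-end reads, aligned them to GRCm38.p6 with HISAT2 (version 2.2.1 in the submitters' processing notes) and counted reads per gene with featureCounts in Galaxy. The deposited values are raw counts, without normalization. The annotation release, strand setting and treatment of multimapping reads are not given in the sources used here, so near-identical or overlapping genes can have lost or shared reads.

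From these counts, all 6 libraries were fitted together in R 4.3.3 with edgeR 4.0.16 (TMM, filterByExpr, glmQLFit, glmQLFTest, 3 residual degrees of freedom), and p-values were adjusted over 18539 genes by the Benjamini-Hochberg method with a limit of 0.05. As TC is a single library, the filter admitted a gene on enough counts in 1 library. Standard errors were derived from the F statistic. DESeq2 1.42.0 was an alternative, besides other scalings, filters, fits of only the groups compared, a replicate block and each replicate left out. The fit was tested on simulated data for TC versus EV, where nearly all changed genes of 5 CPM or more were called and fewer below it, and where unchanged genes made up a larger share of the calls than the limit of 0.05 allows. CPM per kb used merged exonic lengths of GENCODE M21, which paired 55141 of 55401 genes with symbols. Libraries held 58471484 to 74413193 counts. Counting error matters for genes with few counts, such as Mdk, Ptprz1, Alk, Ncan, Hs3st1, Lrp2, Add2 and Mmp16, and for the others precision is limited by the few libraries.

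The members and gene lists were chosen with earlier results of these data known. Besides the 10 genes, Wwtr1 and Camta1, the text names up to 3 genes called higher and 3 lower per list and comparison, by size of change, and the 5 nearest profiles of Ptn and Mdk.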

Additional observations from a re-analysis of the deposited data

How the results depend on the processing

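The limits are set by the number of libraries, 6 in all, with a single TC library. Without an EV replicate, the remaining one is assumed to vary like the TC + ATA libraries. The replicate numbers 1 and 2 occur in both EV and TC + ATA, but deviations of same-numbered libraries had a correlation of −0.059, which gives no ground to pair them, and 2 pairs cannot settle it.

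With the replicate block, 1 of the genes other than Ptn was called lower in TC versus EV in place of 2, and the log2 fold change of Mdk became 0.12 and that of Sdc2 −0.022. In TC + ATA versus TC, the block gave 0.014 for Sdc1 and 0.046 for Lrp1. Over the lists, the block lowered the genes called lower from 15 to 9 in TC versus EV and from 19 to 12 in TC + ATA versus EV, and those called higher in TC + ATA versus TC from 1 to 0.

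Scaled by library size only, Ptn in TC versus EV was −3.58, Sdc2 −0.056 and Lrp1 −0.040, Lrp1 in TC + ATA versus EV was −0.054, and the mean of Sdc3 in EV was 26.6 CPM in place of 25.5. With only the groups compared, 1 gene was called lower in TC versus EV, 1 higher in TC + ATA versus TC and 1 higher in TC + ATA versus EV. In the last comparison 1 gene, Sdc2, was also called higher with DESeq2, RLE size factors, no filter on low counts or at least 1 CPM in 2 libraries. Genes of the lists called higher and lower in TC + ATA versus TC were 3 and 1 with DESeq2 and with no filter, and 10 and 3 with only the groups compared. Over all genes, the called genes of that comparison, 79 higher and 29 lower, became 236 and 84 with DESeq2, 242 and 108 with no filter, 795 and 633 with only the groups compared and 32 and 8 with the block.

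Leaving out 1 library at a time, the genes other than Ptn called in TC versus EV ranged from 0 to 2 higher (2 without EV replicate 1) and from 1 to 4 lower (4 without EV replicate 2), and those called higher ranged from 0 to 1 in TC + ATA versus TC and from 0 to 2 in TC + ATA versus EV (2 without EV replicate 1). The log2 fold change in TC versus EV ranged from −0.60 to −0.19 for Ptprs, from −0.072 to 0.17 for Sdc2, from −0.030 to 0.15 for Lrp1 and from −0.45 to 0.20 for Mdk, and that of Lrp1 in TC + ATA versus EV from −0.053 to 0.12. List genes called ranged from 0 to 10 higher and 0 to 3 lower in TC + ATA versus TC, the most without EV replicate 2, and reached 24 lower in TC versus EV without EV replicate 1. Over all genes in TC + ATA versus TC, between 7 and 808 were higher and between 3 and 762 lower.

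Without division by exonic length, the mean syndecan shares over all libraries were 26.8% for Sdc1, 34.5% for Sdc2, 5.09% for Sdc3 and 33.6% for Sdc4, in place of 22.8%, 31.7%, 2.76% and 42.7%. Of the log2 fold changes of the genes other than Ptn over all alternatives, 213 kept direction and side of the limit, 19 newly passed it, 6 no longer did and 11 changed sign. Of those of the named list genes, 790 kept both and 44 no longer passed. In TC versus EV, the calls of Itgb3, Nrp1, Ext1, Chpf, Csgalnact1, Ctnnb1 and Mmp14 were also lost with only the groups compared. Itgb3 was not called without TC + ATA replicate 2. Csgalnact1 was not called without TC + ATA replicate 2 or 3, nor Mmp16 without replicate 3. Ctnnb1 also lost its call with RLE size factors. In TC + ATA versus EV, Dsel lost its call with the replicate block and without any single TC + ATA replicate. The cause of these changes was not tested.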

Other observations

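Glypicans, heparan sulfate proteoglycans held in the membrane by a lipid anchor, were set against the syndecans, which span it. The summed level of the glypican genes was 52.6 and 50.5 CPM per kb in EV, 83.2 CPM per kb in TC and 87.7, 83.4 and 79.4 CPM per kb in TC + ATA. The summed level of the 4 syndecans was 134 and 119 CPM per kb in EV, 113 CPM per kb in TC and 125, 122 and 116 CPM per kb in TC + ATA. The ratio of glypican to syndecan transcripts was 0.392 and 0.426 in EV, 0.735 in TC and between 0.683 and 0.702 in TC + ATA. The EV libraries lay below all others in the glypican sum and in the ratio, which was not tested, and overlapped with TC + ATA in the syndecan sum.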
